A study of Homo sapiens with 4 samples.

Results

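The 10 genes described here encode the ATPases and core subunits of the SWI/SNF chromatin remodelling complexes in SK-Hep1, a cell line derived from an adenocarcinoma of the human liver. They are the ATPase genes SMARCA4 and SMARCA2, together with SMARCB1, SMARCC1, SMARCC2, SMARCD1, SMARCD2, SMARCD3, SMARCE1 and ACTL6A. They were taken by name out of 19817 protein-coding genes on the autosomes and X, with earlier results of these data known. All 10 are described whatever their values. H3K27ac was profiled by ChIP-seq in puromycin-selected cells carrying an shRNA against SMARCB1 and in cells carrying a control shRNA, and SMARCB1 itself was profiled in SK-Hep1 cells whose shRNA the labels do not give. Each group had 1 library, so no value below has a replicate check, no test between conditions was made, and differences are described as differences between these libraries. An input library is also labelled and was not analysed here.

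SWI/SNF complexes use ATP to slide or evict nucleosomes, which opens promoters and enhancers to transcription factors. Each complex holds a single ATPase, SMARCA4 (BRG1) or its paralog SMARCA2 (BRM), which the cell can use in its place. SMARCC1 and SMARCC2 form the scaffold on which SMARCB1, SMARCE1 and a member of the SMARCD family assemble. H3K27ac, the acetylation of lysine 27 of histone H3, marks active promoters and enhancers, and SWI/SNF complexes lacking SMARCB1 are known from rhabdoid tumours to maintain enhancers poorly.

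The knockdown H3K27ac library held 10203310 tags and the control library 13235203, a ratio of 0.771. The fragment length was 158 bp in the knockdown library and 190 bp in the control library, and both were called against the same control input. The whole lists held 34073 knockdown and 35307 control H3K27ac peaks and 4453 SMARCB1 peaks on the autosomes and X. Knockdown peaks covered 70.9 Mb and control peaks 79.5 Mb of the genome, a ratio of 0.892, so a ratio near 0.892 at a gene is the level of the genome as a whole. The H3K27ac lists hold positions and no heights, which leaves the length under peaks as the quantity compared. How far the depth and fragment length of the libraries enter that length was not tested.

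The sequences below are the promoters that the results on acetylated starts return to. They are the targeted gene SMARCB1, the ATPase SMARCA4, and the pairs of outer and internal starts of SMARCA2 and SMARCD3. Each is the 250 bases before a RefSeq start (GRCh38.p14), written 5′ to 3′ on the strand of the gene. Capitals mark the letters of the motifs described with the starts.
SMARCB1, chr22:23786716-23786965, plus strand: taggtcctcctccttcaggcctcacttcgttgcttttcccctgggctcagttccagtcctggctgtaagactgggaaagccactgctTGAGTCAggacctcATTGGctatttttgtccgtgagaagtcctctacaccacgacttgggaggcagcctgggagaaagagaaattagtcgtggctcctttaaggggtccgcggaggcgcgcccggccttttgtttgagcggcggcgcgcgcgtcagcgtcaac
SMARCA4, chr19:10960780-10961029, plus strand: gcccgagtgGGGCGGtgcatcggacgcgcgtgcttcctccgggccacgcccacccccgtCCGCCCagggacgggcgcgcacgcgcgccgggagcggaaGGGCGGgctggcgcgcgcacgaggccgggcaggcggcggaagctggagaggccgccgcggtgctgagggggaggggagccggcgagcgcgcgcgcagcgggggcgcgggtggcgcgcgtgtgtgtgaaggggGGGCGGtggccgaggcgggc
SMARCA2 outer start, chr9:2015097-2015346, plus strand: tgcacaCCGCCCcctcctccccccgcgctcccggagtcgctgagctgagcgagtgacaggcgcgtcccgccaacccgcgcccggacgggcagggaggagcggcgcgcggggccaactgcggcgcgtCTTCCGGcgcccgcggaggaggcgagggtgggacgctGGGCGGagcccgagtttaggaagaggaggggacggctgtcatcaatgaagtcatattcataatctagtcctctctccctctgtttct
SMARCA2 internal start, chr9:2157412-2157661, plus strand: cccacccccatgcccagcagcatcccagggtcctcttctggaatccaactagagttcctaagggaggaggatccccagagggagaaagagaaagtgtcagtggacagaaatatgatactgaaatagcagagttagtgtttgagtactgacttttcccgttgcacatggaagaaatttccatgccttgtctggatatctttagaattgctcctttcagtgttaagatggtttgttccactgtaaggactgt
SMARCD3 outer start, chr7:151277150-151277399, minus strand: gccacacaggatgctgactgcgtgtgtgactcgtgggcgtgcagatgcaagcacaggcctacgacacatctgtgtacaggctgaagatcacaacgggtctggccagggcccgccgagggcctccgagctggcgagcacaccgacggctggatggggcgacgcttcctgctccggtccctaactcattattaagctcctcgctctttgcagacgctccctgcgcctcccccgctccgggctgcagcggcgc
SMARCD3 internal start, chr7:151248695-151248944, minus strand: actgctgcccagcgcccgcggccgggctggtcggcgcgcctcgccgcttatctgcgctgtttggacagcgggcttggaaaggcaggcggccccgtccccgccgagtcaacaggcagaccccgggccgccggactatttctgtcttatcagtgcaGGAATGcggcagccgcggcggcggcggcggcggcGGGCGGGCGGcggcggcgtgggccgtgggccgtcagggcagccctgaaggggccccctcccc

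All 10 genes carried H3K27ac in both libraries, and each gene with a listed start had a peak over its outermost start in both. No start was listed for SMARCC1, SMARCC2 and ACTL6A. For these the end of the gene record under a peak in both libraries was taken, so the shared peak there follows from that choice. Within the gene and 10 kb on each side, the longest coverage was at SMARCC2, a scaffold subunit gene, with 10849 bp in knockdown cells and 12903 bp in control cells. The shortest was at ACTL6A, which encodes an actin-related subunit, with 2209 bp with the SMARCB1 shRNA and 1932 bp with the control shRNA. Coverage was shorter in the knockdown at 7 genes and longer at 3, SMARCA2, SMARCD1 and ACTL6A, where 76% of the 15409 genes marked in either library were shorter and 23.6% longer. Divided by the genome-wide ratio, the tally was 3 shorter and 7 longer. With 5 kb on each side, or without peaks of the narrowest width, it was 5 and 5. In the gene record alone, or with the wider 50% of each list, it was 6 and 4. With 25 kb, or with peaks merged across gaps up to 1000 bp, it stayed at 7 and 3. Summed over the 10 windows, which span 867 kb, coverage was 55737 bp in the knockdown, from 30 peaks of mean width 2000 bp. In the control it was 60097 bp, from 35 peaks of mean width 1861 bp. Neighbouring genes share these windows. Of the covered bases, 56.8% in the knockdown and 58.3% in the control lay outside the gene records themselves.

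The median ratio of covered length, knockdown over control, was 0.94 over the 10 genes and 0.889 over the 14764 protein-coding genes marked in both libraries. A difference of at least 1.5-fold was used to call a gene. By that rule 1 of the 10, SMARCD1, was longer in the knockdown, where 3.75% of the 15409 genes marked in either library were. None of the 10 (0) was called shorter, where 12.0% of those genes were. Bases under peaks of both libraries made up a median of 79.1% of the bases under either at the 10 genes and 79.4% over all genes marked in both. Position of the mark was thus shared to about the same degree at the 10 genes as elsewhere, and SMARCD1 was the single member past the fold.

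**Figure D1:**
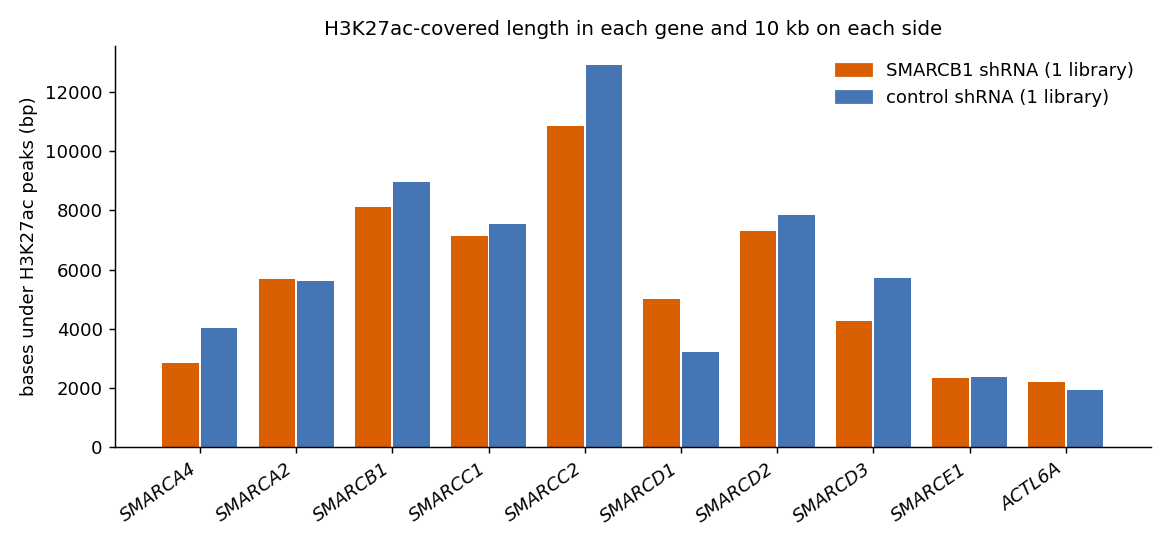
Bases under H3K27ac peaks (bp, vertical axis) in each gene and 10 kb on each side, with the SMARCB1 shRNA library in orange on the left of each pair and the control shRNA library in blue on the right. Each bar is 1 library. SMARCC2 has the tallest pair, with 10849 and 12903 bp, and SMARCD1 is the gene where the orange bar stands clearest above the blue, with 5017 and 3213 bp.

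**Figure D2:**
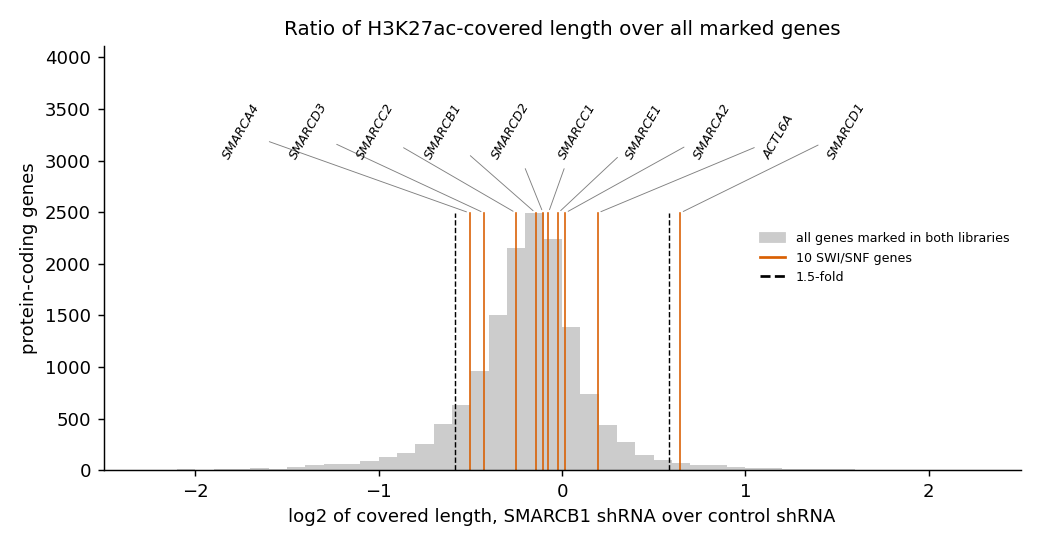
Histogram of the log2 ratio of covered length, SMARCB1 shRNA over control shRNA, over the 14764 protein-coding genes marked in both libraries (grey, vertical axis in genes; the axis shown runs from −2.5 to 2.5), with the 10 SWI/SNF genes as orange lines and a 1.5-fold difference as dashed lines. SMARCA4 is the leftmost of the 10 at −0.50 and SMARCD1 the rightmost at 0.64.

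The ATPase genes differed from each other. SMARCA4, the gene on chromosome 19 from 10961030 to 11062273 (hg38), had 2846 bp in knockdown cells and 4033 bp in control cells, the lowest ratio of the 10 at 0.706. The difference did not come from its start. The peak over the start was wider in the knockdown, at 2846 bp from 10959770 to 10962615, than in the control, at 2530 bp from 10959946 to 10962475. Its outer edge reached 176 bp further upstream in the knockdown and its inner edge 140 bp further into the gene. The control coverage beyond it came from 3 peaks of 501 bp, the narrowest width in that list, at 7.03 kb upstream of the start, at 99.1 kb inside the gene near its far end, and at 103 kb just past it. None of these 3 had a knockdown counterpart. Peaks of this width often lacked one, since 3087 of the 4435 control peaks at that width, or 69.6% (95% Wilson interval 68.2 to 70.9%, for counting error), had no knockdown peak. Without peaks of the narrowest width the SMARCA4 ratio turned to 1.12.

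SMARCA2, on chromosome 9 from 2015347 to 2193620, showed nearly the same map in both libraries, with 5678 bp with the SMARCB1 shRNA and 5616 bp with the control shRNA. The peak over its outer start was 3998 bp wide in knockdown cells and 4080 bp in control cells, the widest start peak among the 10 in the knockdown. A further peak lay 142 kb into the gene, from 2157428 to 2159107 with the SMARCB1 shRNA (1680 bp) and from 2157515 to 2159050 in the control (1536 bp). This peak covered both internal starts that RefSeq lists there, from which shorter SMARCA2 transcripts begin. Between these places the gene carried no H3K27ac peak in either library.

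SMARCB1, the target of the shRNA, was marked at its start in both libraries, and its window held 5 peaks in each. Because an shRNA acts on the transcript, acetylation of the locus is no check of the knockdown. The peak over the start was 1904 bp wide in knockdown cells and 2341 bp in control cells, a ratio of 0.813 and the lowest of the 10 start peaks. Most of the difference lay upstream, where the knockdown edge stood 634 bp from the start and the control edge 990 bp. Inside the gene, a peak 38.7 kb past the start was 1211 bp wide in knockdown cells and 2003 bp in control cells, and the knockdown peak lay wholly within the control peak. Upstream the order differed. A peak that overlaps the record of MMP11, a matrix metalloproteinase gene, spanned 1795 bp in the knockdown, from 23783508 to 23785302, and 501 bp in the control, from 23784059 to 23784559. The next peaks upstream, also in MMP11, were narrower in the knockdown, at 1777 and 1641 bp, than in the control, at 2287 and 2484 bp. The whole window held 8110 bp in knockdown cells and 8958 bp in control cells, and the gene record alone 2481 bp with the SMARCB1 shRNA and 3354 bp with the control shRNA.

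The scaffold genes SMARCC1 and SMARCC2 differed in how closely their maps matched, with every peak of SMARCC1 paired and the flanks of SMARCC2 laid out differently. SMARCC1, on chromosome 3 from 47585269 to 47781893, had 5 peaks in each library, all with a counterpart, and 7142 bp with the SMARCB1 shRNA against 7525 bp with the control shRNA. Its peak over the acetylated end of the record was 2889 bp wide in knockdown cells and 3286 bp in control cells, and the difference lay on the inner side, where the knockdown edge stood 1870 bp and the control edge 2243 bp from that end. A peak 6.27 kb outside that end, in no annotated gene, was 2484 bp wide in knockdown cells and 2609 bp in control cells. Inside the gene, peaks at 37.8 and 55.5 kb were 641 and 627 bp wide with the SMARCB1 shRNA, against 501 and 628 bp with the control shRNA.

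SMARCC2, on chromosome 12 from 56162359 to 56189483, lies beside the myosin light chain genes MYL6 and MYL6B. Bases under both libraries made up 71.9% of those under either, and most of the coverage in its window lay outside its own record, which held 1257 bp in knockdown cells and 1271 bp in control cells. The peak over its acetylated end was 2759 bp wide in knockdown cells and 3025 bp in control cells. On the outer side, a peak of 2438 bp in the knockdown, from 56195833 to 56198270, stood where the control had 4309 bp, from 56194648 to 56198956. A control peak of 501 bp between this peak and the one over the end had no knockdown counterpart. At MYL6 the peaks were laid out differently, with a single knockdown peak of 4783 bp from 56156836 to 56161618 over the place of 2 control peaks of 3029 and 926 bp. The 566 bp between the control peaks, from 56159779 to 56160344, were covered in the knockdown.

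**Figure D3:**
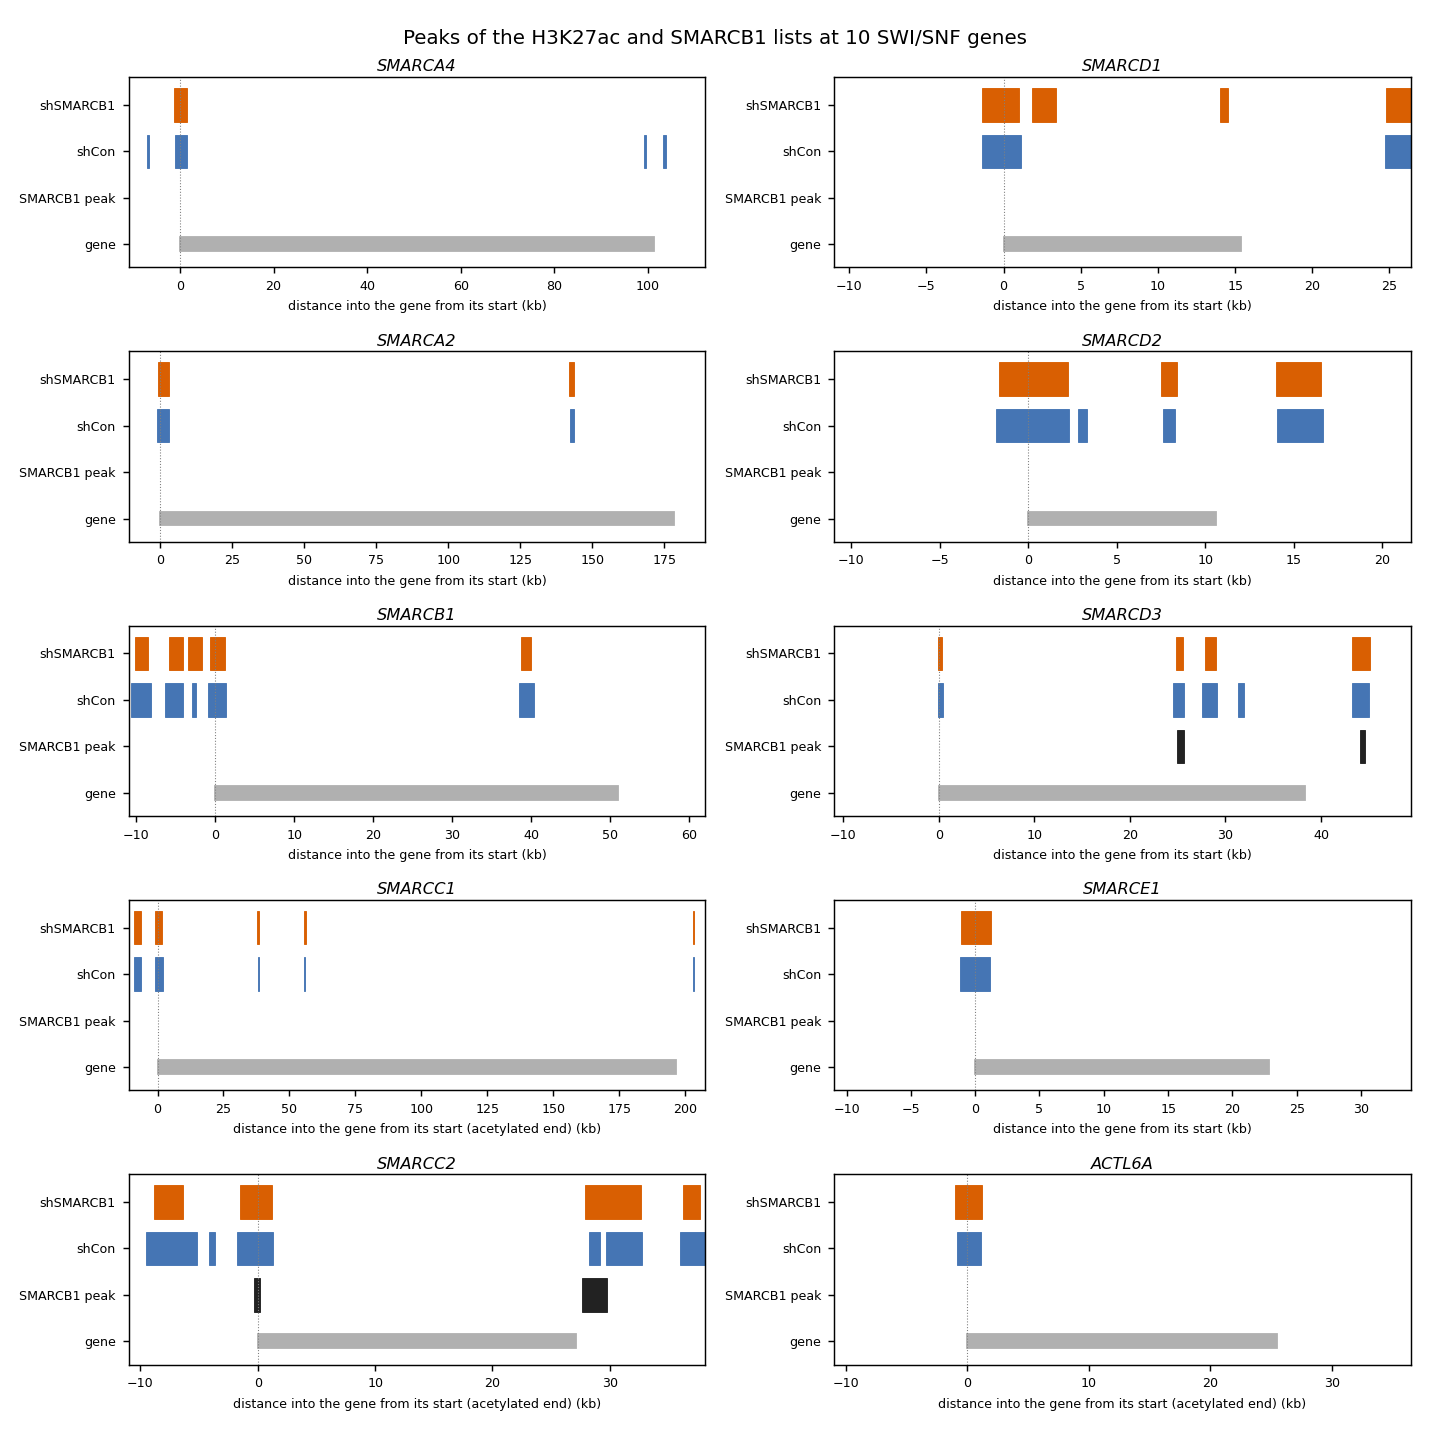
Peaks at the 10 genes, drawn by distance (kb) into the gene from its start, with negative values upstream. In each panel the SMARCB1 shRNA H3K27ac peaks are orange (top row), the control shRNA H3K27ac peaks blue, the SMARCB1 peaks black and the gene record grey. For SMARCC1, SMARCC2 and ACTL6A distances run from the acetylated end of the record. An orange and a blue peak stand over the zero line in all 10 panels, which for SMARCC1, SMARCC2 and ACTL6A follows from the choice of that end. Black peaks appear for SMARCC2 and SMARCD3.

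The SMARCD genes encode alternative subunits of which a complex holds a single kind, and their ratios ran from 0.745 at SMARCD3 to 1.56 at SMARCD1. SMARCD1, on chromosome 12 from 50085342 to 50100707, had 5017 bp with the SMARCB1 shRNA and 3213 bp with the control shRNA, a ratio of 1.56. The peak over its start was alike in both, at 2376 bp in knockdown cells and 2536 bp in control cells. The added length came from 2 knockdown peaks inside the gene with no control counterpart, which were the only such knockdown peaks among the 30 in the 10 windows. The wider spanned 1582 bp from 50087173 to 50088754, or 1.83 to 3.41 kb past the start, and the other 501 bp at 14.0 kb. The knockdown start peak ended at 50086315, close to the wider peak. When peaks were merged across gaps up to 1000 bp the 2 joined, so the wider peak was then no longer unpaired. Inside the record SMARCD1 thus held 3057 bp with the SMARCB1 shRNA and 1109 bp with the control shRNA. With 10 kb on each side the call rests on the narrow peak, since without peaks of the narrowest width the ratio was 1.41. The ratio was 1.76 with 5 kb and 2.76 in the record alone, and these windows were not run without the narrowest peaks. It reversed to 0.913 with 10 kb when the narrower 50% of each list was dropped. That removes knockdown peaks below 1601 bp and so both added peaks.

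SMARCD2, on chromosome 17 from 63832081 to 63842685, was covered over 7311 bp in knockdown cells and 7854 bp in control cells. Its start peak was 3872 bp wide in knockdown cells and 4100 bp in control cells, the widest of the 10 in the control. A peak 7.51 kb into the gene was 886 bp wide in knockdown cells and 662 bp in control cells. A control peak of 501 bp at 2.80 kb, downstream of the start peak, had no knockdown counterpart. The remaining pair, 2553 bp with the SMARCB1 shRNA and 2591 bp with the control shRNA, lay at the neighbouring genes PSMC5, a proteasome ATPase gene, and FTSJ3.

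SMARCD3, on chromosome 7 from 151238780 to 151277149, had 4247 bp in knockdown cells and 5699 bp in control cells, a ratio of 0.745. It was the gene with the narrowest mark at its outer start, where the peak had the narrowest width of 501 bp in both libraries. The wider marks lay inside the gene. Over its internal start, 28.5 kb in, the peak was 1146 bp wide in the knockdown, from 151248122 to 151249267, and 1602 bp in the control, from 151247997 to 151249598. A peak at 24.8 kb was 751 bp wide in knockdown cells and 1147 bp in control cells, and a control peak of 629 bp at 31.3 kb had no knockdown counterpart. All 3 internal control peaks were thus wider than what the knockdown held there, and within the record the gene had 2261 bp with the SMARCB1 shRNA and 3776 bp with the control shRNA. Counted within the record alone or with 5 kb on each side, SMARCD3 passed 1.5-fold, with ratios of 0.599 and 0.624. Its ratio was 0.797 with 25 kb on each side and turned to 1.02 when the narrower 50% of each list was dropped.

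SMARCE1, which encodes an HMG-box DNA-binding subunit, and ACTL6A each held a single peak per library, over the start or the acetylated end. For SMARCE1, on chromosome 17 from 40624962 to 40647818, it was 2328 bp wide in knockdown cells and 2364 bp in control cells, with 2276 bp in common. For ACTL6A, on chromosome 3 from 179562926 to 179588407, it was 2209 bp wide in knockdown cells and 1932 bp in control cells, and the control peak lay wholly within the knockdown peak, which reached 149 bp further out and 128 bp further in. ACTL6A and SMARCA4 were the members whose start peak was wider in the knockdown.

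Over the 10 genes, control peaks without a counterpart numbered 6 of 35, or 17.1% (8.1 to 32.7%), and 5 of these 6 had the narrowest width of 501 bp. Knockdown peaks without a counterpart numbered 2 of 30, or 6.67% (1.85 to 21.3%). In the whole lists the shares were 12.2% of knockdown and 17.7% of control peaks, each within the interval of its library.

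**Figure D4:**
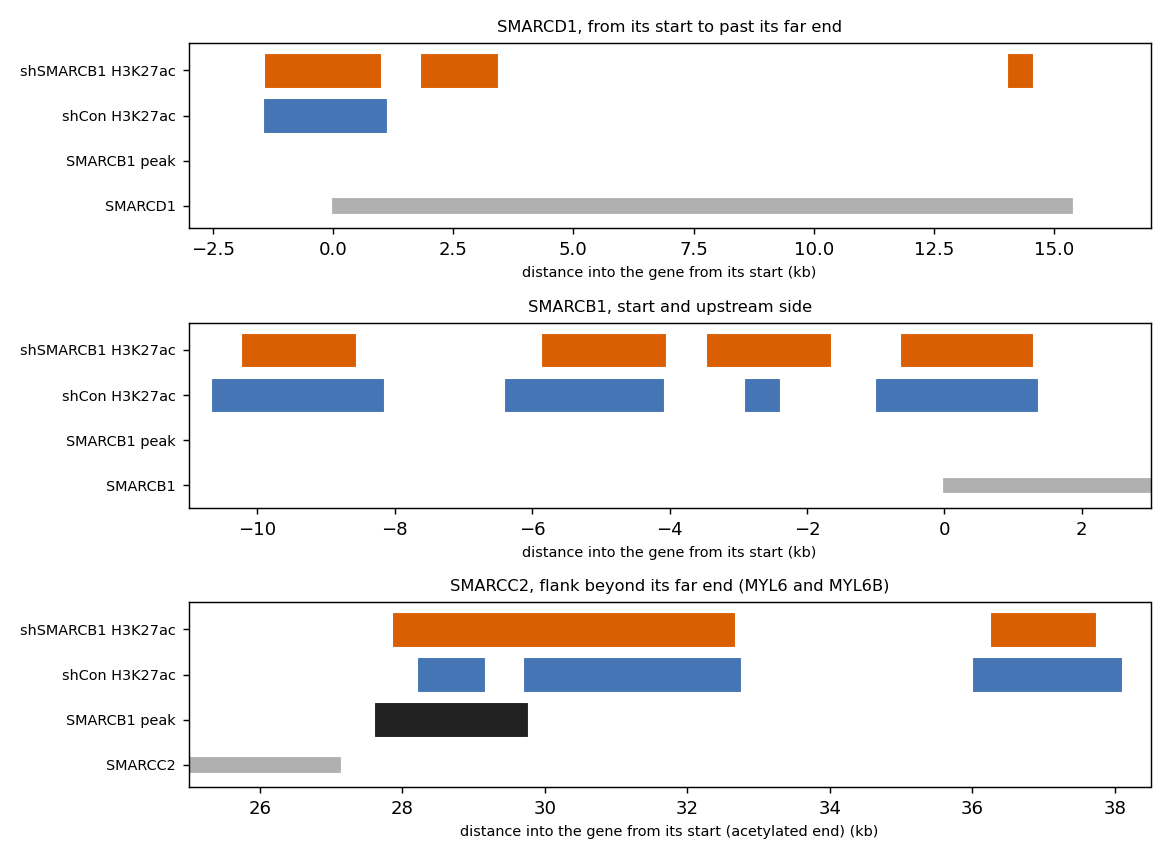
Close views of 3 loci by distance (kb) into the gene from its start (for SMARCC2 from the acetylated end), with SMARCB1 shRNA H3K27ac peaks in orange, control shRNA H3K27ac peaks in blue, SMARCB1 peaks in black and the gene record in grey. The 2 added knockdown peaks of SMARCD1, the 1795 bp knockdown peak upstream of SMARCB1 over a 501 bp control peak, and the 4783 bp knockdown peak that spans both control peaks at MYL6 are visible.

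The peak over the start or acetylated end was narrower in the knockdown at 7 genes, wider at 2 and equal at SMARCD3, with ratios from 0.813 at SMARCB1 to 1.14 at ACTL6A and a median of 0.962. Over the 12649 listed starts of protein-coding genes with a peak in both libraries the median ratio was 0.908, and the peak was narrower in the knockdown at 9800 and wider at 2824. No start peak of the 10 genes (0) differed by 1.5-fold, where 0.972% of all such starts were wider and 7.42% narrower in the knockdown by that much. The 10 are 1 position per gene, with chosen ends for SMARCC1, SMARCC2 and ACTL6A, while the 12649 count every listed start. Counted in that way, the other 7 genes had 11 starts with a peak in both libraries. Their median ratio was 0.98, and 0 differed by 1.5-fold. By width in the control the order was SMARCD2, SMARCA2, SMARCC1, SMARCC2, SMARCD1, SMARCA4, SMARCE1, SMARCB1, ACTL6A and SMARCD3, and without replicates it is unknown which neighbours in this order differ beyond their spread. In the knockdown SMARCA2 led, ahead of SMARCD2, SMARCA4 stood above SMARCC2 and SMARCD1, and ACTL6A stood above SMARCB1.

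RefSeq promoter entries matched 7 of the 10 genes, with 15 starts. No entry was matched for SMARCC1, SMARCC2 and ACTL6A. Of the 15 starts, 11 lay under H3K27ac in both libraries, or 73.3%, where 57.2% of the 22131 starts of protein-coding genes did, and 4 lay under it in neither. Those 4 were at 23.1 kb in SMARCA4, 6.6 kb in SMARCA2, 3.96 kb in SMARCD2 and 0.415 kb in SMARCD3, counted from the outermost start of each gene. The ratio of observed to expected CpG in the 250 bases before them was 0.256 at most. The SMARCD3 start among them lay just outside the peak of each library, and most of the 250 bases before it lay under that peak. Of the 11 acetylated starts, 10 had a ratio of at least 0.726. The exception was the SMARCA2 internal start printed above, at 0.0759, which shared its peak with the other internal start, at 0.726. Over all listed starts the median was 0.837 where both libraries had a peak and 0.311 where neither did. Judged by the start base alone, most member starts followed that difference.

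The printed promoters all lay under H3K27ac in both libraries and differed in composition. The SMARCA4 promoter was 82.4% G and C and held 4 GC boxes (GGGCGG on either strand, capitals), the SMARCA2 outer promoter was 68.8% G and C with 2 GC boxes and an ETS sequence (CCGGAAG), and the SMARCA2 internal promoter was 46% G and C with none of the 10 motifs. The SMARCD3 internal promoter, whose peak was the wider of that gene's starts, was 76% G and C with 2 overlapping GC boxes and a TEAD sequence (GGAATG), and the SMARCD3 outer promoter was 65.2% G and C with none. The SMARCB1 promoter was 58% G and C with no GC box, and held an AP-1 sequence (TGANTCA) and a CCAAT box in reverse. Both strands were searched. Among all 22131 starts the GC box was present at 53.7%, the CCAAT box at 32.7%, the ETS sequence at 10.7%, the TEAD sequence at 10.5%, the TATA box (TATAAA) at 9.0% and the AP-1 sequence at 5.35%. Among the 15 member starts the GC box was present at 6, the CCAAT box at 2 and the TATA, AP-1, TEAD and ETS sequences at 1 each. The CRE (TGACGTCA), E-box (CACGTG), NRF1 and YY1 (AAGATGGCG) sequences were at none of the 15 and at 2.02%, 7.37%, 1.28% and 0.75% of all starts. These matches describe letters in the window and are not binding sites.

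**Figure D5:**
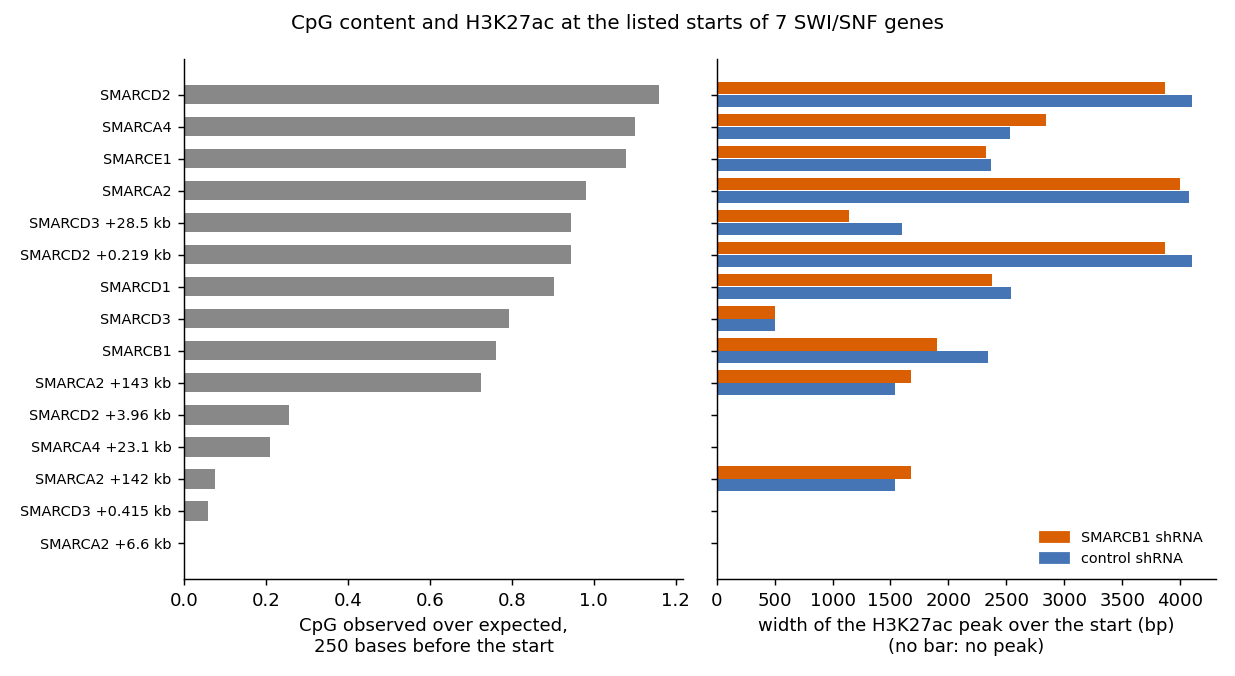
Ratio of observed to expected CpG in the 250 bases before each of the 15 listed starts (left) and width of the H3K27ac peak over that start in bp (right), with the SMARCB1 shRNA library in orange above the control shRNA library in blue. Labels with a distance are starts inside the gene. The starts with a CpG ratio of 0.256 or less have no peak over the start base, apart from the SMARCA2 start at 142 kb. Most of the 250 bases before the SMARCD3 start at 0.415 kb lay under a peak.

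SMARCB1 peaks lay in the windows of 2 of the 10 genes, SMARCC2 and SMARCD3, or 20% (5.67 to 51%), where 23.3% of all protein-coding genes had one. The 4 peaks comprised 1 of the promoter-TSS class, 2 of the intron class and 1 of the 5' UTR class, as the authors classed them. The promoter peak sat on the acetylated end of SMARCC2, from 56189266 to 56189765, and lay wholly inside the H3K27ac peak of both libraries. Its value of 12.7, the authors' own and of unstated unit, ranked 1724 of 4453. The intron peak in the SMARCC2 window lay at MYL6 and not in SMARCC2, from 56159741 to 56161862, with a value of 69.7 and rank 47. Of its 2122 bp, H3K27ac covered 1878 bp in knockdown cells and 964 bp in control cells, and it contained all of the 566 bp that were covered in the knockdown only between the control peaks.

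In SMARCD3 the intron peak, from 151251539 to 151252172, lay 25 kb into the gene, with a value of 14.8 and rank 1217. H3K27ac covered 562 of its 634 bp in the knockdown and all 634 bp in the control, and the H3K27ac peak under it was one of those that were narrower in the knockdown. The 5' UTR peak, from 151232574 to 151233073, lay in the neighbouring gene CHPF2, under H3K27ac in both libraries. No SMARCB1 peak lay within 10 kb of the SMARCB1 gene, and the nearest was 71.0 kb from its start. The distance from the start or acetylated end to the nearest SMARCB1 peak was 21.3 kb at SMARCC1, 60.2 kb at SMARCE1, 82.0 kb at SMARCD1, 182 kb at SMARCA4, 221 kb at SMARCD2, 301 kb at ACTL6A and 2282 kb at SMARCA2. The median was 76.5 kb over the 10 genes and 122 kb over 15811 protein-coding genes with a listed start.

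The other SWI/SNF subunit genes, a list of 19, had H3K27ac in both libraries at 18, and ACTL6B, a neuronal subunit gene, had none. Their median ratio of covered length was 0.864, with 15 shorter and 3 longer in the knockdown, and 2 passed 1.5-fold, both shorter. Over all marked genes 76% were shorter and 12.0% passed 1.5-fold in that direction, so these counts were near the general level. PBRM1, which encodes a bromodomain subunit of PBAF, had 8638 bp with the SMARCB1 shRNA and 12994 bp with the control shRNA. DPF1, a PHD finger subunit gene, had 1782 bp in knockdown cells and 3206 bp in control cells. SMARCB1 peaks lay in 11 of these 19 windows, or 57.9%, at ARID1A, ARID1B, ACTB, BCL7A, BCL7B, BCL7C, BICRA, BICRAL, BRD7, DPF1 and DPF2. The share was 20% for the 10 genes and 23.3% for all protein-coding genes. The windows were not matched for length or for neighbouring genes, so these shares are a description.

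Among 16 genes for ATPases of other remodellers, all were marked in both libraries, with a median ratio of 0.871, and 15 were shorter in the knockdown, beside the 76% of all marked genes. Those past 1.5-fold, all shorter, were SMARCA1, an ISWI ATPase gene, with 2067 bp with the SMARCB1 shRNA and 3916 bp with the control shRNA, ATRX, with 3148 bp in knockdown cells and 5808 bp in control cells, and SMARCAL1, which encodes an annealing helicase, with 3553 bp with the SMARCB1 shRNA and 5662 bp with the control shRNA. These were 3 of the 16, where 12.0% of all marked genes were shorter by that much. SMARCB1 peaks lay in 6 of these 16 windows, or 37.5%, where 23.3% of all protein-coding genes had one. These windows were not matched for length or neighbouring genes either. Both lists had lower medians than the 10 genes, at 0.864 and 0.871 against 0.94, and all 3 medians lay close to the 0.889 of all genes.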

How the data were processed

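The deposited lists of 3 libraries were used. The submitters' processing notes name HOMER, Bowtie2 and hg38, with no versions. HOMER made each H3K27ac list in histone style from 1 library, per the file headers, against the control input, with 4-fold signal over input required and regions stitched to variable length. The deposited H3K27ac score is the same for every peak. Each deposited SMARCB1 peak carries the authors' value, of unstated unit, and position class.

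Only peaks on the autosomes and X entered. Genes, starts and promoter sequences came from RefSeq tables (GRCh38.p14; its main chromosomes match hg38). Bases under peaks were counted in each gene record and 10 kb on each side, and an overlap of 1 base made peaks counterparts. A 1.5-fold difference in covered length defined a call. For genes without a listed start, the end of the record under H3K27ac in both libraries was used. Covered lengths equalled those of bedtools 2.31.1 in all 10 windows of both lists, and the code was checked on simulated peaks. Scripts ran in Python 3.11.15 with pandas 2.3.3, NumPy 2.4.6, matplotlib 3.10.9 and SciPy 1.17.1. All 10 genes were named whatever their values, and from the other lists those past the fold or, for subunits, with a SMARCB1 peak. Members and lists were chosen with earlier results of these data known. Alternatives covered the window, the fold, the peaks kept, merging, overlap, scaling and the SMARCB1 peaks used.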

Additional observations from a re-analysis of the deposited data

How the results depend on the processing

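The summed ratio of covered length, 0.927, ranged from 0.928 to 0.99 with other windows, other peaks kept or merging, and was 1.04 after division by the genome-wide ratio. The count of genes at least 1.5-fold longer in the knockdown, 1, was 0 with a window of 25 kb, with the wider 50% of each list, with a fold of 2, and without peaks of the narrowest width, which was chosen after seeing the data. Under the wider 50% SMARCD1 reversed to 0.913, by construction, and in the gene record alone it was 2.76. SMARCA4, at 0.706, turned to 1.12 with the wider 50% and without the narrowest peaks. The SMARCD3 window, at 0.745, was at 1.02 with the wider 50%, which left only the peaks at its neighbour CHPF2. The count at least 1.5-fold shorter, 0, was 1 in the gene record alone and with 5 kb, and 2 with a fold of 1.25. Control peaks without a counterpart, 6, were 3 in the gene record alone, 2 with the wider 50% and 1 without the narrowest peaks. Knockdown peaks without a counterpart, 2, were 5 with 25 kb, 1 after merging and 3 without the narrowest peaks, beside the 1 control peak. In that last setting the 1795 bp peak upstream of SMARCB1 and the 641 bp peak in SMARCC1 lost their 501 bp control counterparts to the filter. The change in order there is thus made by the filter. Genes with a SMARCB1 peak, 2, were 4 with 25 kb and 1 by the promoter-TSS class alone. Of 70 ratios of single genes under these settings, 66 stayed within 1.5 times the value reported. Of the 70, 10 were the reported ratios divided by the genome-wide ratio, a shift fixed in advance. SMARCE1 and ACTL6A, with 1 peak per library, repeated their value in most settings. SMARCB1, at 0.905, and SMARCC2, at 0.841, both crossed to 1.02 with 5 kb and still count among the 66. The count is thus no measure of how stable the ratios or their directions are. No paired analysis was possible because each group had 1 library. Depth and peak height could not be varied from peak positions.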
